A study of Homo sapiens with 9 samples.

Results

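The mRNA of 6 DNA helicase genes, DDX11, BRIP1, RTEL1, ERCC2, DNA2 and PIF1, was followed in KHM-5M cells treated with YK-4-279. They were chosen by gene symbol from the 58735 genes of the deposited table, with earlier results of these data known. All 6 were listed once and passed the filter on low counts. KHM-5M is an established human thyroid cancer line, and YK-4-279 is a small molecule that interferes with ETS transcription factors. Cells received DMSO alone, 0.3 µM YK-4-279 or 1 µM YK-4-279 for 24 h, with 3 samples in each of the 3 groups, and poly-A selected RNA was sequenced in bulk. Every sample came from this 1 line, and the labels do not say whether the numbered replicates were separate cultures. The study's methods call its replicates biological, but give fewer per condition than the labels number. The p-values measure the spread between these samples, which may be technical.

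Total counts ranged from 16903251 to 18238884 per sample, and no group was set apart by depth. Of 8 thyroid follicular markers, PAX8 (21.6 to 27.7 FPKM) and HHEX were above a mean of 1 FPKM in every group, whereas TG, TSHR and SLC5A5 did not exceed 4 counts. Of 5 epithelial markers, KRT8 (183 to 204 FPKM) and KRT18 (125 to 141 FPKM) were the highest, EPCAM and KRT19 lay between 1.56 and 2.86 FPKM, and CDH1 did not exceed 5 counts. The leukocyte markers PTPRC and CD3E did not exceed 1 count. Of 4 endothelial markers, PECAM1 and CDH5 did not exceed 6 counts, and VWF and KDR did not exceed 77 counts or 0.423 FPKM. The summed leukocyte markers were 0.254 to 0.663 FPKM in DMSO and 0.94 to 1.13 FPKM at 1 µM, mostly through CD14, and their part in the results below was not tested. The summed fibroblast markers, mostly COL1A1, lay between 35.8 and 59.2 FPKM.

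DNA helicases use ATP to separate the strands of DNA. DDX11, BRIP1, RTEL1 and ERCC2 form a family that moves 5′ to 3′ and holds an iron-sulfur cluster in its motor domain. DNA2, a nuclease as well as a helicase, carries such a cluster too, and PIF1, which lacks one, is a 5′ to 3′ helicase that unwinds G-quadruplexes. The cluster is built in mitochondria and the cytosol and handed to the target protein by the CIAO1, CIAO2B and MMS19 complex. These enzymes act in replication, repair or transcription. DDX11 acts in sister chromatid cohesion, BRIP1 beside BRCA1 in cross-link repair and RTEL1 at telomeres. ERCC2 acts in the transcription and repair factor TFIIH, and DNA2 and PIF1 act on the flaps of Okazaki fragments.

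All the helicase genes but ERCC2 fell at 1 µM YK-4-279. DDX11 was reduced to 53.0% of its DMSO level, RTEL1 to 56.5%, DNA2 to 64.6%, BRIP1 to 65.8% and PIF1 to 66.3%. Thus 5 of 6 genes were called lower at an adjusted p under 0.05 (edgeR quasi-likelihood test), where 9.95% of the 15617 genes tested were called lower and 7.67% higher. The same 5 were apart from DMSO, meaning that all 3 treated samples lay below all 3 DMSO samples on the TMM-scaled CPM scale, as did 16.3% of all genes. The median log2 fold change of the 6 was -0.62, and that of all genes tested was -0.0083. At 0.3 µM none of the 6 was called, and neither was any other of the 15762 genes tested. Because the study displayed DDX11, BRIP1, RTEL1, DNA2 and PIF1 among its lowered helicases from these same samples, their direction here is not independent evidence.

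**Figure D1:**
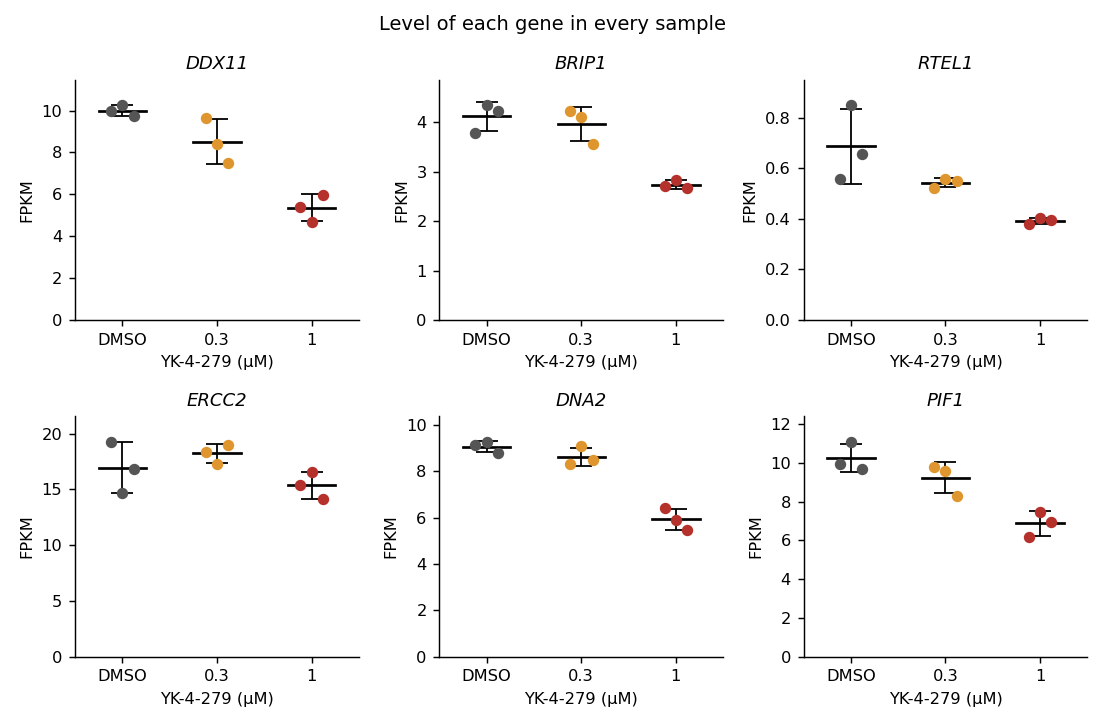
FPKM of the 6 genes in every sample, against the dose of YK-4-279 in µM (DMSO is the vehicle). Points are samples, horizontal bars are the means of 3 samples and whiskers are 1 SD. The 1 µM samples of DDX11, BRIP1, RTEL1, DNA2 and PIF1 lie below all of their DMSO samples, and those of ERCC2 overlap with DMSO.

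FPKM, the count scaled by gene length and by library size, was used to order the levels. For DDX11 and RTEL1, reads shared with other genes may be missing from it, so their places in the order are uncertain. In DMSO the order was ERCC2 with 16.9 ± 2.28 (SD, n = 3), PIF1 with 10.2 ± 0.727, DDX11 with 9.98 ± 0.256, DNA2 with 9.06 ± 0.243, BRIP1 with 4.11 ± 0.288 and RTEL1 with 0.686 ± 0.148 FPKM. Only PIF1 and DDX11 overlapped among neighbours in this order. At both doses ERCC2 remained first and BRIP1 and RTEL1 last, without overlap with their neighbours, while PIF1, DNA2 and DDX11 overlapped with one another in turn. DDX11, above DNA2 in DMSO, had a mean below it at 0.3 µM (8.52 ± 1.08 FPKM) and at 1 µM (5.36 ± 0.652 FPKM), within their overlap.

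DDX11 encodes the helicase that helps newly copied sister chromatids stay paired. The gene lies on the forward strand of GRCh38 at chr12:31073845-31104791. Its level in DMSO was 9.98, 10.2 and 9.73 FPKM in replicates 1, 2 and 3. At 0.3 µM it was 9.65, 8.4 and 7.49 FPKM, and at 1 µM it was 5.4, 4.69 and 5.99 FPKM. The 3 groups did not overlap, and the 0.3 µM samples were spread more widely than those in DMSO. The log2 fold change at 1 µM was -0.91 (SE 0.081, 95% CI -1.09 to -0.74, adjusted p = 1.44e-05). At 0.3 µM it was -0.23 (SE 0.088), with an unadjusted p of 0.0178 and an adjusted p of 0.995. Between the doses it was -0.67 (SE 0.098, adjusted p = 0.000365).

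Reads of DDX11 cannot all be separated from those of its near copies. A transcript of DDX11 aligned over 69.6% of its length to the pseudogene DDX12P (chr12:9418673-9448229, reverse strand) at 98% identity, and over 75.2% to a further unprocessed pseudogene listed as AC009533.1 (chr12:9277235-9313241, forward strand) at 97.8% identity. DDX12P had 483, 441 and 418 counts in DMSO, 432, 397 and 327 at 0.3 µM, and 276, 212 and 185 at 1 µM. AC009533.1 had 207, 277 and 239 counts in DMSO, 208, 206 and 151 at 0.3 µM, and 129, 125 and 109 at 1 µM. Both were lower in every 1 µM sample than in every DMSO sample, with log2 fold changes of -1.02 (SE 0.12, adjusted p = 6.78e-05) for DDX12P and -1.01 (SE 0.13, adjusted p = 0.000165) for AC009533.1. DDX11 held 67.7 to 68.4% of the counts of the 3 genes in DMSO, 67.9 to 69.7% at 0.3 µM and 66.9 to 74.3% at 1 µM. With the counts of DDX11 and DDX12P summed, the log2 fold change at 1 µM was -0.94 (adjusted p = 5.68e-06), and with AC009533.1 added it was -0.95 (adjusted p = 4.1e-06). How much of the pseudogene counts came from DDX11 transcripts cannot be read from a table of counts per gene.

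**Figure D2:**
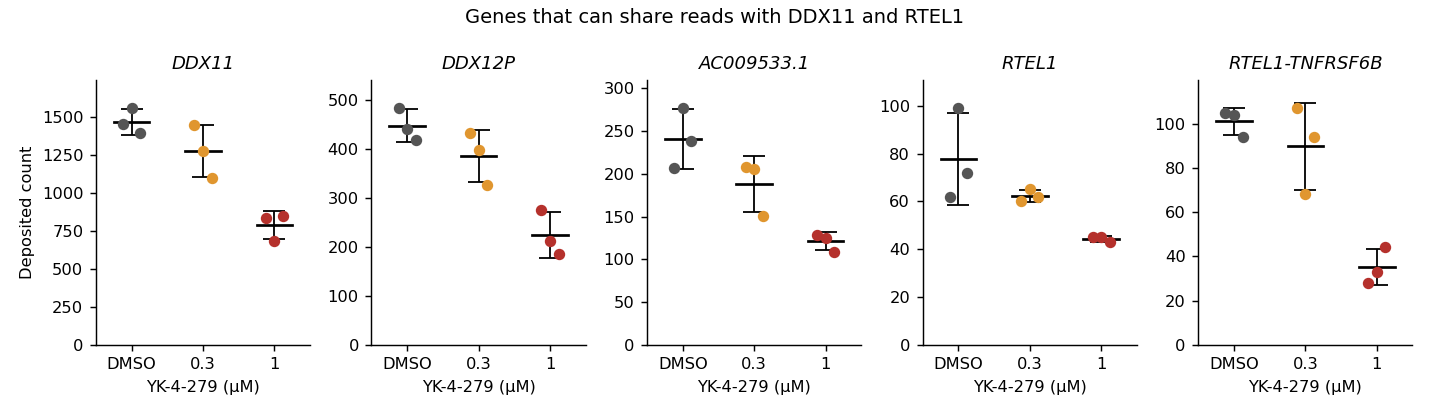
Deposited counts per sample of DDX11 with its near copies DDX12P and AC009533.1, and of RTEL1 with the overlapping gene RTEL1-TNFRSF6B, against the dose of YK-4-279 in µM. Points are samples, bars are means of 3 samples and whiskers are 1 SD, and each panel has its own axis from 0. In all 5 panels the 1 µM samples lie below every DMSO sample.

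DDX11 works beside the fork protection proteins and the cohesin ring. Of 14 genes of sister chromatid cohesion and fork protection, 5 fell and 1 rose at 1 µM, with a median log2 fold change of -0.17. Among all genes tested, 9.95% were called lower and 7.67% higher. CHTF18, of the alternative clamp loader that supports cohesion, fell by 0.67 on the log2 scale (SE 0.082, adjusted p = 0.000129). TIMELESS, a fork protection factor that binds DDX11, fell by 0.43 (SE 0.064, adjusted p = 0.000498). STAG1, a cohesin subunit, rose by 0.25 (SE 0.055, adjusted p = 0.00785). None of the 14 was called at 0.3 µM, where no gene tested was called.

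BRIP1, also named FANCJ, binds BRCA1 and is needed for repair of DNA cross-links. It lies on the reverse strand at chr17:61681266-61863521. The level was 3.79, 4.33 and 4.22 FPKM in DMSO, 4.22, 4.09 and 3.56 FPKM at 0.3 µM, and 2.7, 2.83 and 2.68 FPKM at 1 µM. The low dose overlapped with DMSO, and the high dose was below both with little spread. The log2 fold change at 1 µM was -0.60 (SE 0.084, 95% CI -0.78 to -0.42, adjusted p = 0.000319). Against 0.3 µM it was -0.54 (SE 0.092, adjusted p = 0.00131). At 0.3 µM it was -0.06 (SE 0.096), and it turned to 0.015 without 0.3 µM replicate 3.

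Of 17 BRCA1 and Fanconi partners, 16 were tested, and 10 fell and 0 rose at 1 µM, with a median log2 fold change of -0.30. Among all genes tested, 9.95% were called lower and 7.67% higher. BRCA2, a mediator of homologous recombination, showed the largest fall of the list at -0.93 (SE 0.2, adjusted p = 0.00631). Its counts were 362, 435 and 335 in DMSO against 151, 296 and 152 at 1 µM, so that replicate 2 was the highest of both groups. Its adjusted p was 0.0568 by DESeq2 and 0.0505 by limma on FPKM. FANCA, of the Fanconi core complex, fell by 0.79 (SE 0.075, adjusted p = 1.75e-05).

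RTEL1 takes apart telomere loops and G-quadruplexes. It lies on the forward strand at chr20:63657810-63696253, and had the lowest FPKM of the 6 genes, a level that may miss shared reads. It had 62, 99 and 72 counts in DMSO, 60, 65 and 62 at 0.3 µM, and 45, 45 and 43 at 1 µM. DMSO replicate 2 stood highest, and the 1 µM samples lay together below all others. The log2 fold change at 1 µM was -0.82 (SE 0.21, 95% CI -1.28 to -0.37, adjusted p = 0.0162). The call rested on single libraries, since the adjusted p was 0.0616 without DMSO replicate 2 (log2 fold change -0.63) and 0.0523 without 1 µM replicate 1 (log2 fold change -0.79). Between the doses the log2 fold change was -0.47 (SE 0.21, adjusted p = 0.152), which did not pass the test.

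RTEL1 and the readthrough gene RTEL1-TNFRSF6B, at chr20:63659300-63698684, share 4522 exonic bases on the same strand, which make up 52.9% of the exonic bases of RTEL1. RTEL1-TNFRSF6B had 105, 104 and 94 counts in DMSO, 107, 68 and 94 at 0.3 µM, and 28, 33 and 44 at 1 µM. Its log2 fold change at 1 µM was -1.54 (SE 0.21, adjusted p = 0.000307), and between the doses it was -1.33 (SE 0.25, adjusted p = 0.00226). RTEL1 held 37.1 to 48.8% of the counts of the pair in DMSO and 49.4 to 61.6% at 1 µM. The deposited count of TNFRSF6B itself was 0 in all 9 samples. RTEL1-TNFRSF6B shares 1140 exonic bases with it on the same strand, so absence of its mRNA cannot be read from this count. With the pair summed the log2 fold change was -1.19 (SE 0.15, adjusted p = 0.000153) at 1 µM and -0.91 (SE 0.16, adjusted p = 0.00164) between the doses. The sum includes a gene whose own counts fell more, and no alternative assignment of the shared reads could be made from a table of counts per gene.

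Of 10 genes of shelterin, the protein cap of telomeres, and of telomere resolution, 9 were tested, and 1 fell and 0 rose at 1 µM, near the share of all genes called lower (9.95%). The median log2 fold change was -0.03. The gene that fell was SLX4, a nuclease scaffold, by 0.35 (SE 0.094, adjusted p = 0.0194). Its call was lost without DMSO replicate 1 or 3 and without 1 µM replicate 2 or 3, with adjusted p values from 0.0634 to 0.0859, and by limma on FPKM (adjusted p = 0.0826).

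ERCC2, also named XPD, unwinds DNA around a lesion as a subunit of TFIIH. It lies on the reverse strand at chr19:45349837-45370918, and was the most abundant of the 6 genes. Its level was 19.2, 14.7 and 16.9 FPKM in DMSO, 18.4, 17.3 and 19 FPKM at 0.3 µM, and 15.4, 16.6 and 14.2 FPKM at 1 µM. The 1 µM samples overlapped with DMSO, whose replicate 2 was low, and lay below all 0.3 µM samples. At 1 µM the log2 fold change was -0.16 (SE 0.089, 95% CI -0.35 to 0.035, adjusted p = 0.25). It was -0.24 without DMSO replicate 2, and was then called (adjusted p = 0.0242), whereas without DMSO replicate 1 it was -0.05 (adjusted p = 0.726). Its interval did not overlap with that of any of the other 5 genes at 1 µM, although the difference between genes was not itself tested. At 0.3 µM the log2 fold change was 0.11 (SE 0.09). Between the doses ERCC2 fell by 0.25 (SE 0.07, adjusted p = 0.0265), and this call was lost without 0.3 µM replicate 1 (adjusted p = 0.0552), without 1 µM replicate 1 (0.0792), without 1 µM replicate 3 (0.17), by limma on FPKM (0.0706) and in a fit of all 9 samples (0.0576). The gene KLC3, which overlaps 7.71% of its exonic bases on the opposite strand, had a mean count of 16.9.

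Of 14 other TFIIH subunit and nucleotide excision repair genes tested, 1 fell and 2 rose at 1 µM, where 9.95% of all genes were called lower and 7.67% higher. The median log2 fold change was -0.0066. GTF2H4, a TFIIH subunit, had only 13, 12 and 10 counts in DMSO and 2, 3 and 6 at 1 µM (log2 fold change -1.65, SE 0.51, adjusted p = 0.0375), and lost its call with a minimum count of 1 (adjusted p = 0.079), with the replicate block (0.0667) and without every single library except 1 µM replicate 3 (0.0686 to 0.153). ERCC4, a repair nuclease, rose by 0.44 (SE 0.14, adjusted p = 0.0495), but did not pass by DESeq2 (0.0649), with the replicate block (0.0554), by limma on FPKM (0.121) or without DMSO replicate 2 or 3 or 1 µM replicate 1 or 2 (0.11 to 0.146). GTF2H1, of the TFIIH core, rose by 0.28 (SE 0.071, adjusted p = 0.0152), and its adjusted p was 0.0656 without DMSO replicate 3 and 0.0839 without 1 µM replicate 3.

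DNA2 trims flaps of Okazaki fragments and resects broken DNA ends. It lies on the reverse strand at chr10:68414064-68472121. The level was 9.15, 9.26 and 8.79 FPKM in DMSO, 8.31, 9.08 and 8.49 FPKM at 0.3 µM, and 6.4, 5.9 and 5.48 FPKM at 1 µM. The DMSO and 0.3 µM samples overlapped, and all 1 µM samples were lower. The log2 fold change at 1 µM was -0.63 (SE 0.079, 95% CI -0.80 to -0.46, adjusted p = 0.000159). Between the doses it was -0.54 (SE 0.085, adjusted p = 0.000578), and at 0.3 µM it was -0.07 (SE 0.082).

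PIF1 acts at G-quadruplexes and beside DNA2 in flap processing, and also works in mitochondria. It lies on the reverse strand at chr15:64815632-64825668. The level was 9.95, 11.1 and 9.69 FPKM in DMSO, 9.77, 9.59 and 8.31 FPKM at 0.3 µM, and 6.18, 7.48 and 6.96 FPKM at 1 µM. At 0.3 µM replicate 3 was the lowest, and at 1 µM no sample reached the other groups. The log2 fold change was -0.59 (SE 0.087, 95% CI -0.78 to -0.41, adjusted p = 0.000468) at 1 µM and -0.43 (SE 0.091, adjusted p = 0.00584) between the doses. At 0.3 µM it was -0.15 (SE 0.09).

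Of 19 genes of Okazaki fragment and DNA end processing, 9 fell and 0 rose at 1 µM, with a median log2 fold change of -0.17. Among all genes tested, 9.95% were called lower and 7.67% higher. EXO1, an exonuclease that resects DNA ends, fell by 0.51 (SE 0.091, adjusted p = 0.00189). LIG1, which seals Okazaki fragments, fell by 0.43 (SE 0.069, adjusted p = 0.000895). None of the 19 was called at 0.3 µM, where no gene tested was called.

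**Figure D3:**
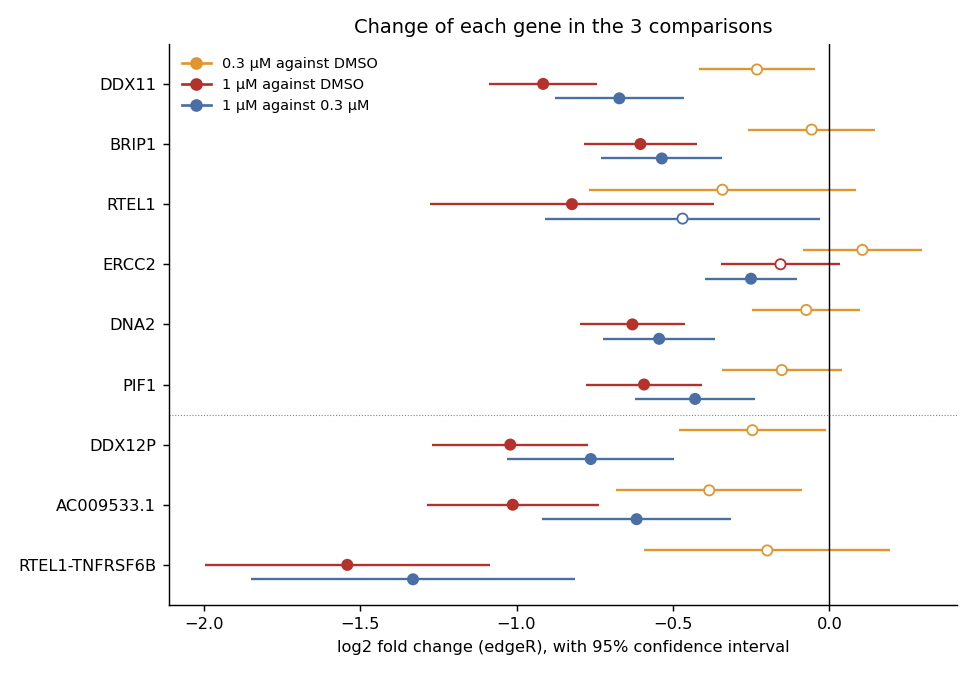
Log2 fold change (edgeR) with its 95% confidence interval for the 6 genes and, under the dotted line, the genes that can share reads with DDX11 and RTEL1. Filled points have an adjusted p under 0.05 and open points do not. Every point for 0.3 µM against DMSO is open, and the fall of RTEL1-TNFRSF6B at 1 µM (-1.54) is the largest shown.

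DEGs were counted here as protein-coding genes with an adjusted p under 0.05 by edgeR and a change past the 1.5-fold limit used in the study, which took its p-values from DESeq2. By edgeR 5 of the 6 genes were lower DEGs at 1 µM, against 2.35% of 12900 protein-coding genes tested. By DESeq2 with an adjusted p they were 4, since the log2 fold change of PIF1 was -0.58 and short of the limit. DNA2, BRIP1 and PIF1 lay close to the fold limit. The count of DEGs was 2 without DMSO replicate 2, 2 without 1 µM replicate 1 and 3 without 1 µM replicate 3, while the count at an adjusted p under 0.05 alone was 4 without 1 µM replicate 1 and 5 under the other alternatives run, with ERCC2 in place of RTEL1 without DMSO replicate 2.

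At 0.3 µM against DMSO, 0 of the 6 genes were called lower, and 0.0% of 15762 genes tested were called lower. Among all genes edgeR called 0 in either direction, with 594 at an unadjusted p under 0.05, while DESeq2 called 1 and limma on FPKM called 0. Of the 6 genes, DDX11 alone had an unadjusted p under 0.05 and was lower, as were 2.13% of all genes. DDX11 and RTEL1 were apart from DMSO, with all 3 samples below, against 4.23% of all genes, although by FPKM the highest RTEL1 sample at 0.3 µM (0.557) met the lowest in DMSO (0.556). The 0.3 µM replicate 3 held the lowest level of its group for DDX11, BRIP1 and PIF1, and was below every DMSO sample for 5 of the 6 genes. In contrast, replicate 1 was below every DMSO sample for 3 of the 6 and replicate 2 for 2.

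Between 1 µM and 0.3 µM, 5 of the 6 genes were called lower, namely DDX11, BRIP1, DNA2, PIF1 and ERCC2, where 6.75% of 15583 genes were. This comparison shares its 1 µM samples with the one against DMSO. DDX11 alone was also a DEG, against 1.45% of the protein-coding genes, and that count was 0 without 0.3 µM replicate 1 or 1 µM replicate 2, and 2 without 0.3 µM replicate 3 or 1 µM replicate 1.

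The iron-sulfur assembly genes called at 1 µM did not share one direction. Of all genes tested, 9.95% were called lower and 7.67% higher. Of 10 genes of the cytosolic machinery, 3 fell and 1 rose, with a median log2 fold change of -0.08. CIAO3, a cytosolic assembly factor, fell by 0.48 (SE 0.099, adjusted p = 0.0048), and NDOR1, a reductase that supplies electrons to the pathway, fell by 0.42 (SE 0.096, adjusted p = 0.00861). CIAPIN1, the partner of NDOR1, rose by 0.25 (SE 0.073, adjusted p = 0.0289), with the call lost with the replicate block (0.0531) and without DMSO replicate 1 or 3 or 1 µM replicate 2 or 3 (0.072 to 0.121). Of 11 mitochondrial assembly genes tested, 0 fell and 1 rose, near the share of all genes called higher, with a median of 0.07. The gene that rose, by 0.36 (SE 0.095, adjusted p = 0.0186), was ISCA1, a late assembly factor, which did not pass without DMSO replicate 1 or 1 µM replicate 2 or 3 (0.0551 to 0.0657).

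Of 5 other iron-sulfur enzymes of DNA, 2 fell and 0 rose at 1 µM, with a median log2 fold change of -0.21. Among all genes tested, 9.95% were called lower and 7.67% higher. POLE, the catalytic subunit of the leading-strand polymerase, fell by 0.51 (SE 0.061, adjusted p = 0.000124). PRIM2, the large primase subunit, fell by 0.21 (SE 0.064, adjusted p = 0.0394), and did not pass by DESeq2 (0.106), with a minimum count of 1 (0.09), in a fit of all 9 samples (0.0677), with the replicate block (0.0854), by limma on FPKM (0.052) or without any single library except DMSO replicate 1 (0.0631 to 0.136).

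Of 17 other DNA helicase genes tested, 4 fell and 3 rose at 1 µM, where 9.95% of all genes were called lower and 7.67% higher. Their median log2 fold change was -0.03. The replicative helicase genes MCM2 to MCM7 were counted in the S phase list instead, and all were called lower, from -0.34 (MCM5) to -0.20 (MCM6). FANCM, counted with the Fanconi partners, also fell, by 0.66 (SE 0.12, adjusted p = 0.00165). ZGRF1, a helicase of cross-link repair, fell by 0.98 (SE 0.098, adjusted p = 2.58e-05), and BLM, which dissolves Holliday junctions, fell by 0.44 (SE 0.079, adjusted p = 0.00192). TWNK, the mitochondrial replicative helicase, rose by 0.49 (SE 0.12, adjusted p = 0.0145), with an adjusted p of 0.0788 without 1 µM replicate 2. HELZ2 rose by 0.37 (SE 0.082, adjusted p = 0.0073).

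**Figure D4:**
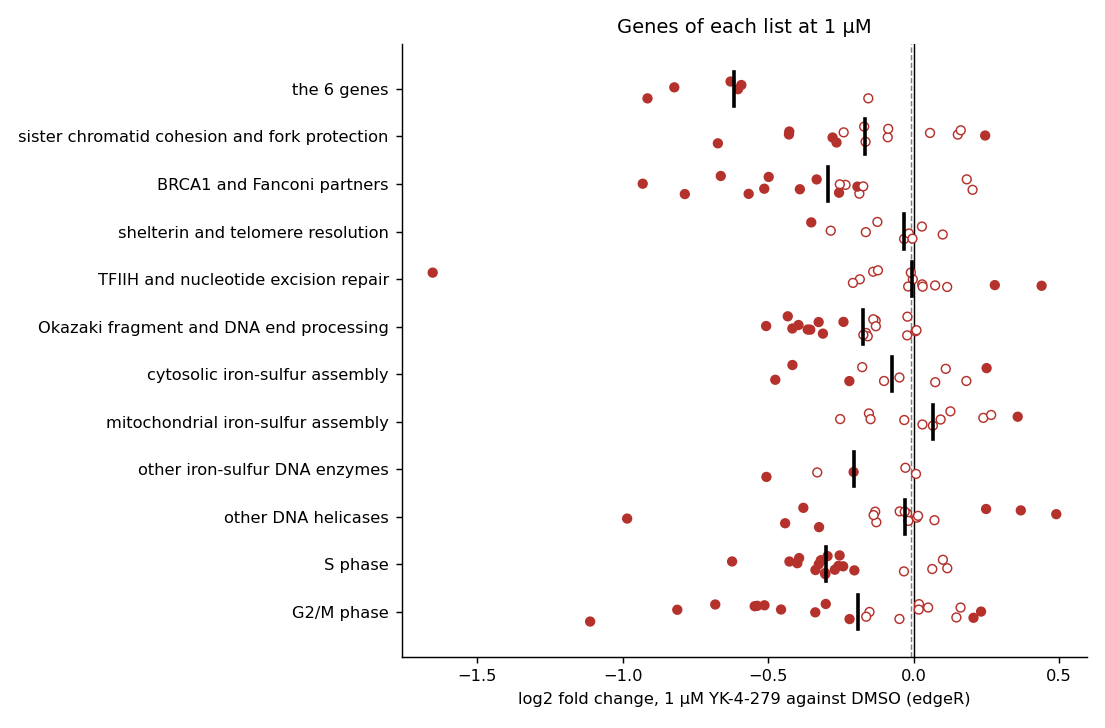
Log2 fold change (edgeR) at 1 µM YK-4-279 against DMSO for every tested gene of each list. Filled points have an adjusted p under 0.05, black bars are list medians, the dashed line is the median of all genes tested and the vertical spread of points is for display only. The median of the 6 genes (-0.62) is lower than that of each of the other lists shown, of which the S phase list (-0.30) comes nearest. The 6 genes were chosen with earlier results of these data known, so this contrast is not independent evidence.

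Of the cell cycle genes called at 1 µM, all of S phase fell and those of G2/M went both ways. Their part in the result was not tested. In bulk RNA alone, fewer cells in a phase and less mRNA per cell cannot be told apart. By flow cytometry, the study reported a larger share of cells in G2/M at the higher dose in every line it tested, KHM-5M among them. It reported no significant increase at the lower dose. Those cells were treated for a shorter time than the cells sequenced here, and the bearing of that shift on the values below was not tested. Of 20 S phase genes, 15 fell and 0 rose at 1 µM, where 9.95% of all genes were called lower and 7.67% higher. The median log2 fold change of the 20 was -0.30. Their summed level was 588 to 601 FPKM in DMSO, 528 to 598 FPKM at 0.3 µM and 485 to 509 FPKM at 1 µM. CDC45, of the replicative helicase complex, fell by 0.62 (SE 0.071, adjusted p = 6.74e-05), and CDT1, which licenses origins, by 0.43 (SE 0.075, adjusted p = 0.00169). Of 20 G2/M genes, 10 fell and 2 rose, with a median of -0.19, and their summed level was 1369 to 1459 FPKM in DMSO and 1257 to 1355 FPKM at 1 µM. The kinetochore genes CENPE (-1.11, SE 0.28, adjusted p = 0.0149) and CENPF (-0.81, SE 0.22, adjusted p = 0.0201) fell most, but did not pass by DESeq2 (0.146 and 0.209), by limma on FPKM (0.0681 and 0.0771) or without 1 µM replicate 1 or 3 (0.0557 to 0.0783). Replicate 2 was the highest of both groups for each, with 1782 and 8962 counts in DMSO and 1024 and 6438 at 1 µM. Those 1 µM counts exceeded the lowest DMSO counts, 985 and 6219. The mitotic kinase AURKA rose by 0.23 (SE 0.053, adjusted p = 0.00876), and CCNB1, cyclin B1, by 0.21 (SE 0.056, adjusted p = 0.0205), the latter not passing without DMSO replicate 1 or 3 or 1 µM replicate 2 or 3 (0.0566 to 0.0893).

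The profiles of the 6 genes over the 9 samples were compared with those of 12297 protein-coding genes with a mean of at least 1 CPM. The measure was the root mean square difference of log2 CPM after each gene was centred on its own mean, so that a small value means a similar profile. DDX11, whose own root mean square deviation was 0.398, was closest to CCDC150 (0.087), ACCS (0.0887) and CPNE7 (0.0912). BRIP1 was closest to the S phase gene CDC45 (0.062), MUC15 (0.0672) and KIAA0895L (0.0679). DNA2 was closest to HOXB3 (0.0241), TICRR (0.0618) and MAN2C1 (0.0619). PIF1 was closest to ACYP1 (0.0495), NINL (0.072) and MTMR11 (0.0853). RTEL1 was closest to ZNF91 (0.106), ITGB3BP (0.112) and ANKRD36B (0.113), which were farther off than the nearest genes of the other 5. ERCC2 was closest to LTBP4 (0.0424), PTP4A3 (0.0445) and MTA1 (0.0459), none of which was called at 1 µM. Among the 6 genes themselves, the nearest pair was BRIP1 and PIF1 (0.0854), followed by BRIP1 and DNA2 (0.101), and the farthest was DDX11 and ERCC2 (0.372).

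Because YK-4-279 interferes with ETS factors, whose recognition core is GGAA, the promoters were searched for it. RefSeq windows of 300 bases on GRCh38.p14, from 250 bases before to 50 bases after a transcription start, were found for 5 of the 6 symbols, with 2 windows each for DDX11 and RTEL1. They are shown because these genes, ERCC2 aside, fell together, with every GGAA on either strand (TTCC when read on the strand shown) in capitals and the gene's own strand written 5′ to 3′. Of each pair of windows for DDX11 and RTEL1, the one with more matches is printed. In order, the windows lie at chr12:31074015-31074314 on the forward strand, chr20:63658062-63658361 on the forward strand, chr17:61863479-61863778 on the reverse strand, chr15:64825598-64825897 on the reverse strand and chr19:45370524-45370823 on the reverse strand.
DDX11: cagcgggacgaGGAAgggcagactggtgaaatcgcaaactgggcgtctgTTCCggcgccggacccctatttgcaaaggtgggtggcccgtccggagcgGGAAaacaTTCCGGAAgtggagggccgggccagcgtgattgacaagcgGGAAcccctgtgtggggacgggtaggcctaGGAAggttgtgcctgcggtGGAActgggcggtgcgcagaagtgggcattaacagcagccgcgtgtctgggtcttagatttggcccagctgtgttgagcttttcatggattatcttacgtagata
RTEL1: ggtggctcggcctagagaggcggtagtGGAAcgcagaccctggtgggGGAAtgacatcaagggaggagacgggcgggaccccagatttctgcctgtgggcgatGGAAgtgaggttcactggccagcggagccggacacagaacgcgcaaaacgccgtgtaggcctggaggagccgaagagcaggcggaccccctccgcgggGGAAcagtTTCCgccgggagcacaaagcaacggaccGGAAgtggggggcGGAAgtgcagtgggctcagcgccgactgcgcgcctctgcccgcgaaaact
BRIP1: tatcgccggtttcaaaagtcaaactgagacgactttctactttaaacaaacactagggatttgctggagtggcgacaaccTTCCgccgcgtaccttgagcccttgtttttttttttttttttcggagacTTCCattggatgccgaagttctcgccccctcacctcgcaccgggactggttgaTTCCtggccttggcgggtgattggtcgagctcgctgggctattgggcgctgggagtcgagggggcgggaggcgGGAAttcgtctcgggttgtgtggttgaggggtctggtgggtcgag
PIF1: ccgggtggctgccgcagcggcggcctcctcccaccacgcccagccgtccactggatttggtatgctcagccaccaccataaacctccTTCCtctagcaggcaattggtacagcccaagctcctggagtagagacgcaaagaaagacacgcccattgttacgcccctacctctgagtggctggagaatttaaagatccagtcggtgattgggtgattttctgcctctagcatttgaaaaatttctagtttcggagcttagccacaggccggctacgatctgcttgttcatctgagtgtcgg
ERCC2: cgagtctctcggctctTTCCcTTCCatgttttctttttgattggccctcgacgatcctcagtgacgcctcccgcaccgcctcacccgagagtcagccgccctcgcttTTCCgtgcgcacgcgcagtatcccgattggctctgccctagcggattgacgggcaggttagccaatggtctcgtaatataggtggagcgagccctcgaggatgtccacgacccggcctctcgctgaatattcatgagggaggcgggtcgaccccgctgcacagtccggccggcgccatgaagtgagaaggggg

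GGAA on either strand was matched 8 times in the DDX11 window and 7 times in the RTEL1 window shown, and 4 and 0 times in the other windows of these genes. Those other windows hold the listed starts of DDX11 and RTEL1. The windows shown begin past these starts and were picked for their matches, so the shares of all windows are not a like comparison for them. BRIP1 had 4 matches, ERCC2 had 3 and PIF1 had 1. At least 1 match was present in 95.5% of 35116 RefSeq windows of the same length, with a median of 3, and 46% of them had 4 or more. The longer run CCGGAAGT, which contains GGAA, was found once in each of the DDX11 and RTEL1 windows shown. It began 142 bases before the transcription start of that DDX11 window and 15 bases before that of the RTEL1 window. Of all windows, 4.14% held it on either strand. It was not matched in the other windows of DDX11 and RTEL1. Nor was it matched in any window of BRIP1, PIF1 or ERCC2, which says only that these letters are not in these windows.

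The CCAAT box (CCAAT on either strand) was matched 3 times in BRIP1, 3 times in ERCC2 and 2 times in PIF1, and in 34.6% of all windows. The cell cycle homology region, searched on both strands as TTTGAA, was matched once each in BRIP1 and PIF1, and in 15.2% of all windows. The GC box, searched on both strands as GGGCGG, was matched in the DDX11 and RTEL1 windows shown but not in their other windows. It was also matched in BRIP1 and ERCC2, and in 45% of all windows. Of 2 forms of the E2F site, searched on both strands, TTTGGCGC was matched in no window of the 5 genes and in 0.65% of all windows, and TTTCCCGC, which contains TTCC, once in the DDX11 window shown and in 1.63% of all windows. These matches describe the letters of the reference genome, and binding was not measured here.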

How the data were processed

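RNA from 9 KHM-5M samples was analysed, 3 each with DMSO, 0.3 µM and 1 µM YK-4-279 at 24 h. The authors deposited 1 table of raw counts and of FPKM per gene. The submitters' processing notes name HISAT2 2.0.5, featureCounts 1.5.0-p3 and DESeq2 1.20.0, and the study's methods name GRCh38 and HTSeq. The labels number 3 replicates per group, whereas the study's methods state 2 biological replicates. How strand and shared reads were counted is not given in the sources used here. Columns with the authors' fold changes and p-values were not used. Counts were tested with edgeR 4.0.16 (R 4.3.3; TMM, filterByExpr with a minimum count of 10, quasi-likelihood test, Benjamini-Hochberg adjustment over all genes tested) on the 2 groups compared, after tests on simulated data. DESeq2 1.42.0, limma 3.58.1 on log2(FPKM + 0.1) and other settings served as alternatives. FPKM ordered levels between genes. Copies and motifs were searched in GENCODE v44 transcripts and RefSeq promoter windows. A copy was listed from 20% of the transcript aligned. The text names the 6 genes, those sharing reads with them, up to 2 genes with the largest called change per direction and list at 1 µM, and the 3 most similar profiles per gene. MCM2 to MCM7 and FANCM are named in addition, as helicase genes counted in other lists. AC009533.1 was added after its values were seen. Some listed genes are not reported here. The genes and lists were chosen with earlier results of these data known.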

Additional observations from a re-analysis of the deposited data

How the results depend on the processing

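With 15 alternatives per comparison, 18 log2 fold changes of the 6 genes gave 270 values, of which 258 kept their direction and side of the threshold, 7 fell short of it, 4 passed it and 1 changed sign (BRIP1 at 0.3 µM, 0.015 without 0.3 µM replicate 3 and from -0.11 to 0.015 over the left-out libraries). The cause was not tested. Not every value was free to move. The unadjusted p reuses the main fold change, and among the 6 genes the sums alter only DDX11 or RTEL1. At 0.3 µM no gene was called in the main fit. DDX11, BRIP1, DNA2 and PIF1 were called at 1 µM under each alternative, with DDX11 from -0.999 to -0.83. The 27 genes named for the largest called changes of their lists gave 404 values at 1 µM, of which 54 fell short. At an unadjusted p, 1 gene was lower at 0.3 µM. The DEG count of 5 at 1 µM was 4 by DESeq2, 3 with a minimum count of 1, 3 by limma on FPKM and 2 to 5 when single libraries were left out. Between the doses the DEG count of 1 was 2 with shared-read genes summed and 0 to 2 when single libraries were left out. The sum of DDX11 with both pseudogenes was chosen after seeing the data. Same-numbered deviations correlated from -0.0781 to 0.141. Differently numbered samples were not compared, so whether the replicate numbers pair the samples was not settled. With the replicate block 5 genes were called at 1 µM, 5 between the doses and 0 at 0.3 µM, as without it. Counts of 43 to 99 limit the precision of RTEL1.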
